A study of Mus musculus with 7 samples.

Results

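The Notch pathway was examined in cultured BB-p53n OPCs through 10 genes, which were chosen by symbol from the 33696 rows of the count matrix. They are the receptors *Notch1*, *Notch2* and *Notch3*, the ligands *Dll1*, *Dll3* and *Jag1*, the transcriptional repressors *Hes1*, *Hes5* and *Hey1*, which are classical targets of Notch signaling, and *Hes6*, a relative of these repressors. All 10 had a row in the matrix and UMIs in the library. BB-p53n OPCs are primary mouse oligodendrocyte progenitor cells (OPCs) of *Trp53*fl/fl C57BL/6 pups, male or female, taken at postnatal day 5 to 7 with an antibody to CD140a (PDGFRα). A PDGFB-IRES-CRE retrovirus then deleted *Trp53* and made the cells overexpress PDGF-BB. The single-nucleus library of these cells was 1 of 7 samples of a study of glioma formation after their injection into the brain. The 3 early-stage and 3 late-stage tumor samples were not analysed here. With 1 library there was no replicate and no control OPC, so every value below describes this library, every interval covers counting error only, and no test was run.

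Notch signaling passes between touching cells. A ligand on one cell binds a Notch receptor on its neighbor, the receptor is cleaved by ADAM proteases and γ-secretase, and its intracellular domain enters the nucleus, where it joins RBPJ and a Mastermind protein to switch on *Hes* and *Hey* genes. These repress proneural genes, and proneural factors in turn activate *Dll* ligand genes, so that in developing neural tissue cells with much ligand and cells with much target activity often lie side by side. In OPCs, Notch1 signaling is known to hold back maturation. *Dll3* differs from the other ligands in that its protein stays largely inside the cell and inhibits Notch in the same cell, and *Hes6* opposes *Hes1* and is itself induced by proneural factors.

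Promoter windows are shown for genes on which the results turn, since RBPJ and proneural factors act through such sites. The windows run from 250 bases before to 50 bases after the RefSeq start (GRCm38.p6, written 5′ to 3′ in the direction of transcription), and 8 of the 10 genes had one. *Hes1* and *Hey1* had none. Capitals mark an RBPJ motif (GTGGGAA, or TTCCCAC when it lies on the other strand) or an E-box of the kind proneural factors bind (CAGCTG, which reads the same on both strands). The *Hes5* window (chr4:154960673-154960972, plus strand) is shown because *Hes5* was the only one of the 8 with the RBPJ motif, which starts at -226 and again at -83. *Lfng*, which encodes a sugar transferase that modifies Notch receptors, carries the motif at -109 and E-boxes at -146 and 1 (chr5:140607091-140607390, plus strand). *Dll3* carries an E-box at -7 (chr7:28301736-28302035, minus strand).

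Hes5: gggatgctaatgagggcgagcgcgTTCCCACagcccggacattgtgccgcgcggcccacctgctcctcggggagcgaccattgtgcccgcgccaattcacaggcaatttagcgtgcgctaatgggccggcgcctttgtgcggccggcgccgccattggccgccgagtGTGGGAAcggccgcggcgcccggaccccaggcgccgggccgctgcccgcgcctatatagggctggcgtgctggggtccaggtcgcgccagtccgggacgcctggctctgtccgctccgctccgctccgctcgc

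Lfng: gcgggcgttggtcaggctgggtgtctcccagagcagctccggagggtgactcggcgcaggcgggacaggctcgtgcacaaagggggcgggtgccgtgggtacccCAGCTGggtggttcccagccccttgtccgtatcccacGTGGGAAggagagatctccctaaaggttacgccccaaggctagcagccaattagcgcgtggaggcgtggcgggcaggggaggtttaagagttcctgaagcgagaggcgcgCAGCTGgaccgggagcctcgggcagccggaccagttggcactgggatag

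Dll3: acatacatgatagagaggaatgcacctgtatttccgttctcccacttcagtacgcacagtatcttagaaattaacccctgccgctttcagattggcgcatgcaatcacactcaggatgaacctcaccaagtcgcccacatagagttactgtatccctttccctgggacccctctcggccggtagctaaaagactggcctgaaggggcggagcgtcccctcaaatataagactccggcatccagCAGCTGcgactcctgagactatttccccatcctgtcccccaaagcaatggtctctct

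Across 32851 windows of 300 bases, 6.38% held the RBPJ motif and 16.3% the E-box. Of the 8 genes, 4 held the E-box, namely *Dll1*, *Dll3*, *Jag1* and *Hes6*. A match of letters is a description and not a binding site.

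The 8917 nuclei with 2000 to 8000 detected genes, of 10047 deposited barcodes, held 141138093 UMIs. The median nucleus had 13771 UMIs and 4718 genes. Shares of nuclei and co-detection were taken after each nucleus was thinned at random to 5000 UMIs, which kept 8760. The other 157 were shallower. The markers fit the label of the cells, since the 5 OPC markers *Olig1*, *Olig2*, *Sox10*, *Pdgfra* and *Cspg4* were all above 10 CPM (UMIs of the gene per 1000000 UMIs) and summed to 1319 CPM. Astrocyte markers summed to 15.3 CPM, microglial markers to 7.36 CPM and endothelial markers to 8.85 CPM, with *Cldn5* at 0. The 5 neural progenitor markers summed to 2294 CPM, most of it from *Fabp7* (1709 CPM). *Nes* was at 324.7 CPM, *Sox11* at 228.9 CPM, *Dcx* at 30.9 CPM and *Prom1* at 0.411 CPM. Clustering gave 8 re-derived clusters of 182 to 1810 nuclei, numbered from 0 by size and given no cell type name. Cluster 1 (1733 nuclei) stood apart: it held *Xist*, the RNA of the inactive X chromosome, at 959 CPM against 3.45 to 156.2 CPM in the others, *Pdgfra* at 19.4 CPM against 144.2 to 393 CPM, and *Egfr* at 236 CPM against 2.66 to 111.4 CPM. The OPC markers summed to 769.7 CPM in it and to at least 1173 CPM in each other cluster, the neuronal markers to 36.2 CPM against 106.4 to 255 CPM and the markers of committed oligodendrocytes to 8.49 CPM against 17.6 to 230 CPM, whereas the neural progenitor markers summed to 3468 CPM against 1566 to 2551 CPM. Of the 5 progenitor markers, 3 were above 10 CPM in cluster 1 and 4 in the library, so a higher sum does not mean that each was higher. The summed level of 4 Y-linked genes was 323 CPM in cluster 3 and 105.7 CPM in cluster 0, where *Xist* was at 8.67 and 15.9 CPM. It was 6.997 CPM in cluster 1, but also 7.10, 12.7 and 7.14 CPM in clusters 2, 4 and 6, where *Xist* was low as well (3.45 to 10.8 CPM), so that those clusters showed neither mark. In clusters 5 and 7 it was 67.1 and 16.2 CPM. Because the culture came from pups of either sex, a difference of sex and a difference of cell state cannot be told apart in cluster 1. In cluster 5 (777 nuclei) the median was 30276 UMIs and 61.1% of nuclei were among the top 8% of Scrublet doublet scores. Clusters 1 and 5 were therefore each left out in turn as a setting. Most such values given below are those without cluster 1. Free RNA was gauged from the same Y-linked genes, which had 6.89 CPM in the *Xist*-positive nuclei of cluster 1 (median 11615 UMIs) against 72.9 CPM in the library, a ratio of 0.0945. Of these nuclei, 2.25% (95% exact binomial interval 1.58 to 3.101%) had a Y-linked UMI after thinning. Of the clusters of at least 500 nuclei, the lowest level of each gene lay above that ratio, from 0.146 of its library level for *Notch3* to 0.721 for *Hes6*. That of *Notch3*, in cluster 6, rested on 6 UMIs (0.504 CPM, 0.185 to 1.098), an interval that reached below the ratio, so it cannot be told from free RNA there.

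*Notch1*, the main receptor of the lineage, was measured at 88.5 CPM (95% exact Poisson interval 86.9 to 90.03), and 66.8% of nuclei had at least 1 UMI, or 35.4% after thinning. *Notch2* was at 19.3 CPM (18.6 to 20.03) with a UMI in 8.94% of thinned nuclei. *Notch3*, a receptor best known from vessel mural cells, was at 3.46 CPM (3.16 to 3.78) with a UMI in 1.92% of thinned nuclei and in 7.63% of those of cluster 1. Of the receptors, only *Notch1* had a UMI in most nuclei. *Notch4* had 71 UMIs in all.

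Each ligand was detected in more than 10% of thinned nuclei. *Dll3* was at 42.6 CPM (41.6 to 43.7) and 16.7% of thinned nuclei had a UMI. *Dll1*, which activates Notch in neighboring cells, was at 28.5 CPM (27.6 to 29.3; 12.5%). *Jag1*, the ligand of the Serrate family, was at 25.1 CPM (24.3 to 26.0; 10.8%). The other canonical ligands were nearly absent from the counts: *Dll4* had 10 UMIs and *Jag2* 76 UMIs.

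Among the targets, *Hes1* was at 14.3 CPM (13.7 to 14.9; 6.99% of thinned nuclei), *Hey1* at 5.89 CPM (5.49 to 6.30; 3.03%) and *Hes5* at 5.002 CPM (4.64 to 5.39; 2.34%, and 4.52% in cluster 1). *Hes6* was at 29.6 CPM (28.7 to 30.5; 13.5%). Of the targets not among the 10, *Nrarp*, a feedback inhibitor that Notch induces, had 516 UMIs (3.66 CPM), *Heyl* had 1 UMI and *Hes2* none. A count of 0 allows up to 3 UMIs.

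**Figure D1:**
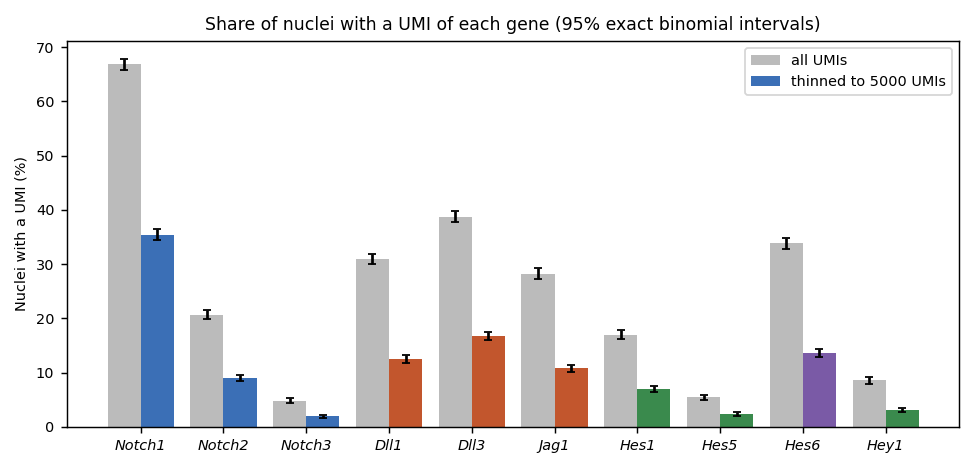
Share of nuclei with a UMI (%, vertical axis) for each of the 10 genes, from all UMIs (gray) and after thinning to 5000 UMIs (colored by receptor, ligand, target and *Hes6*), with 95% exact binomial intervals. *Notch1* leads with 66.8% and 35.4%, and *Notch3*, *Hes5* and *Hey1* are each below 10% on both scales.

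Longer genes can give more UMIs, so levels of different genes were compared per kilobase (kb) of gene span, since RNA of nuclei includes introns. On this scale *Hes6* led with 10.2 CPM per kb (GRCm39, chr1:91339204-91342103), followed by *Dll3* with 4.90 (chr7:27992978-28001673), *Hes5* with 3.44 (chr4:155045373-155046828), *Hes1* with 3.16 (chr16:29882134-29886643) and *Dll1* with 2.89 (chr17:15587276-15597134). *Hes5* and *Hes1* did not differ beyond their counting intervals (3.19 to 3.70 and 3.03 to 3.31). *Notch1* followed with 1.51 (chr2:26347915-26406675), *Hey1* with 1.08 (chr3:8726956-8732385), *Jag1* with 0.712 (chr2:136923373-136958693), *Notch2* with 0.141 (chr3:97920800-98057677) and *Notch3* with 0.0750 (chr17:32339794-32385893). *Hes6*, *Dll3*, *Hes5*, *Hes1* and *Dll1*, each with a span under 10 kb, ranked above the receptor genes, whereas *Hey1*, with a span of 5.43 kb, ranked below *Notch1*, with one of 58.8 kb. Per kb of exon, *Dll3* (14.0) came before *Hes6* (10.3) and *Notch1* (6.22) followed them. *Dll1* overlaps *Fam120b* on the opposite strand, which had 4510 UMIs, and *Notch1* overlaps *0610009E02Rik* with 521 UMIs, so that any error in strand assignment would move counts between them.

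*Hes5* was the most unevenly spread of the 10 genes. Its variance over its mean in thinned nuclei was 1.70, where pure counting gives 1, and the other 9 lay between 1.03 (*Hey1*) and 1.28 (*Notch2*). The median of the 11424 genes with at least 500 UMIs was 1.04, and 2.60% of them exceeded *Hes5*. In the unthinned counts 8432 nuclei had no *Hes5* UMI, 385 had 1, 48 had 2, 26 had 3 and 26 had 4 or more, with a highest count of 14. The richest 1% of nuclei held 42.4% of all *Hes5* UMIs, against 15.8% for *Hes1*, 19.1% for *Hey1*, 30.5% for *Notch3* and 36.6% for *Nrarp*. This share rises as counts fall, and *Notch3* and *Nrarp* had fewer UMIs than *Hes5*.

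The 26 nuclei with at least 4 *Hes5* UMIs held 20.8% of its UMIs and came from 5 clusters, 12 of them from cluster 1, 6 from cluster 3, 4 from cluster 5, 2 from cluster 4 and 2 from cluster 7. Their median depth was 13708 UMIs, near the 13638 of nuclei without *Hes5*. In these 26 nuclei *Nrarp* was at 54.0 CPM (34.2 to 81.0), against 3.03 CPM (2.74 to 3.34) in nuclei without *Hes5*. *Hey1* was at 23.5 CPM (11.3 to 43.2) against 5.54 CPM, and *Hes1* at 37.5 CPM (21.5 to 61.0) against 13.7 CPM. Cluster 1, in which these targets were high, gave 12 of the 26 nuclei. In those 12 *Nrarp* was at 92.2 CPM (51.6 to 152), against 10.7 CPM in the nuclei of cluster 1 without *Hes5*, whereas the intervals of *Hes1* (55.3 CPM, 25.3 to 105) and *Hey1* (24.6 CPM, 6.70 to 62.9) held the levels of those nuclei (37.1 and 8.48 CPM). In the 14 from other clusters all of these targets were above the nuclei without *Hes5* there, *Nrarp* at 30.4 CPM (13.1 to 59.9) against 1.63 CPM, *Hes1* at 26.6 CPM (10.7 to 54.8) against 9.44 CPM and *Hey1* at 22.8 CPM (8.36 to 49.6) against 5.01 CPM, on 6 to 8 UMIs each. Over all 26, *Notch1* was at 157 CPM (121.9 to 199.7) against 87.5 CPM. In the 12 of cluster 1 its interval held the level of nuclei without *Hes5* there (178.2 CPM, 119.3 to 255.9, against 128.1 CPM). In the other 14 it did not (144.3 CPM, 102.1 to 198.1, against 80.2 CPM). Over all 26, *Dll3* was at 25.8 CPM (12.9 to 46.2) against 42.8 CPM, with all 11 of its UMIs in the 14 nuclei outside cluster 1 (41.8 CPM, 20.9 to 74.7, against 49.04 CPM). *Lfng* was not higher, with 2 UMIs (4.69 CPM, 0.568 to 16.96) against 12.2 CPM. Both of its UMIs lay in the 12 nuclei of cluster 1 (12.3 CPM, 1.49 to 44.4), an interval below the 46.1 CPM of nuclei without *Hes5* there. The nuclei were chosen for their *Hes5* counts, and 15.4% of them against 7.64% of the nuclei without *Hes5* had a Scrublet score in the top 8%, whose part in these values was not tested.

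Among the 7 clusters of at least 500 nuclei, the receptors and targets were highest in cluster 1, whereas the delta ligands were lowest there. Of the 9 genes with at least 500 UMIs, 8 differed more than 2-fold between their highest and lowest cluster of at least 500 nuclei (7 clusters), against 38.5% of the 11424 genes tested. The median ratio was 3.65 for the 9 genes and 1.75 for all. The clusters were built from the same counts, so these values are a description. Of the 10 genes, 6 were among the 3000 variable genes that the clustering used, and with the 10 genes and the pathway list left out of the clustering the number was again 8. Without cluster 1 it was 5, where 20.6% of all genes were past 2-fold.

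*Notch2* and *Notch3* were highest in cluster 1. *Notch2* was at 63.8 CPM (60.5 to 67.2) there, at 17.8 CPM in cluster 5 and from 5.22 to 13.1 CPM in the remaining 5 of that size, so that cluster 1 held 51.9% of its UMIs. *Notch3* was at 15.4 CPM (13.8 to 17.1) in cluster 1 and between 0.504 and 2.68 CPM in the others of that size. *Notch1* varied less. It was highest in clusters 1 (129.5 CPM) and 3 (117.6 CPM), at about 90 CPM in clusters 0 and 5, and lowest in clusters 2 (57.3 CPM), 4 (59.5 CPM) and 6 (60.1 CPM), which had nearly equal levels.

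The delta ligands had the opposite arrangement. *Dll3* was at 8.31 CPM (7.15 to 9.60) in cluster 1, at 31.5 CPM in cluster 0 and between 46.4 and 61.6 CPM in the rest of that size, a 7.41-fold range. *Dll1* was at 10.7 CPM (9.42 to 12.2) in cluster 1 and between 22.2 and 39.3 CPM elsewhere. *Jag1* did not follow them: of the 7 clusters it was lowest in cluster 0 (14.9 CPM) and cluster 1 (17.2 CPM) and highest in cluster 2 (37.5 CPM) and cluster 4 (33.7 CPM). The fall in cluster 1 was therefore steeper for both delta ligands than for the jagged ligand.

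Of the 7 clusters of at least 500 nuclei, cluster 1 again held the highest level of each target. *Hes1* was at 38.3 CPM (35.8 to 41.0) there and ran from 4.03 CPM (cluster 6) to 14.0 CPM (cluster 5) elsewhere. *Hes5* was at 10.8 CPM (9.51 to 12.3) in cluster 1 and at 6.98 CPM (5.77 to 8.37) in cluster 3, and between 2.37 and 4.30 CPM in the rest of that size. *Hey1* was at 9.98 CPM (8.70 to 11.4) in cluster 1 and between 4.15 and 5.72 CPM in the rest of that size. *Hes6* had the narrowest range, from 21.4 to 41.0 CPM (1.92-fold), but stood at 95.3 CPM (82.7 to 109.2) in the small cluster 7 (182 nuclei), 3.33 times its level in all other nuclei. In the same small cluster *Hes5* was at 12.9 CPM (8.60 to 18.7).

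**Figure D2:**
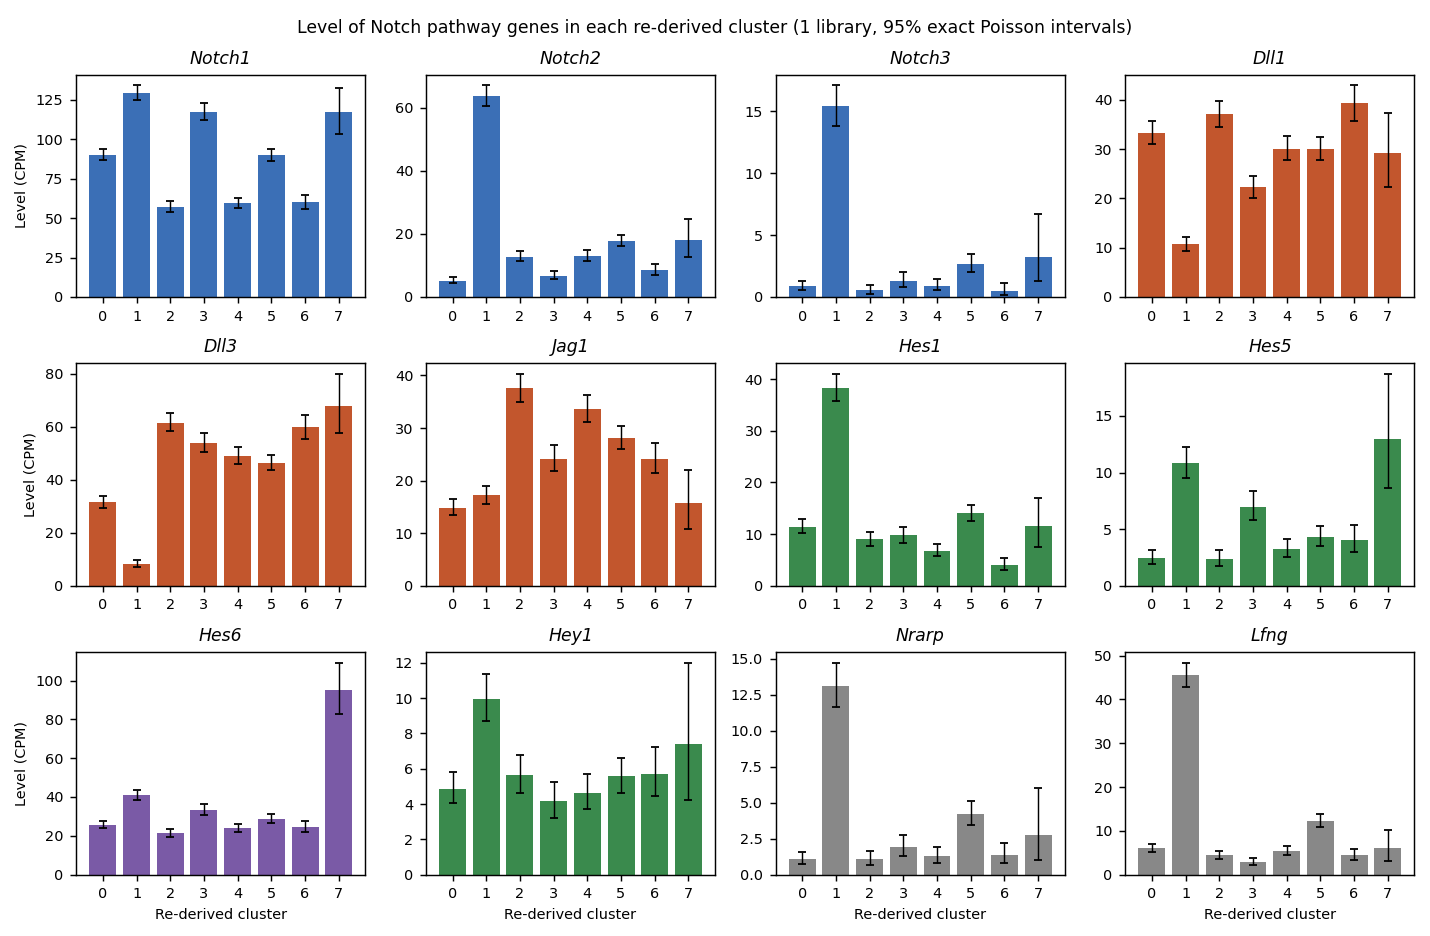
Level (CPM, vertical axis, linear from 0, scaled per panel) of Notch pathway genes in the 8 re-derived clusters (horizontal axis), with 95% exact Poisson intervals. Cluster 1 has the highest *Notch2*, *Notch3*, *Hes1* and *Hey1* and the lowest *Dll1* and *Dll3*, and the small cluster 7 has the highest *Hes6*, at 95.3 CPM.

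Compared with all other nuclei, cluster 1 held 3 of the 9 genes with at least 500 UMIs more than 2-fold higher and 2 more than 2-fold lower. Over all genes tested, 8.11% were that much higher and 9.9% that much lower. The 3 were *Notch2* (5.79-fold), *Hes1* (3.91-fold) and *Hes5* (2.77-fold). Of the 706 UMIs of *Hes5*, 240 lay in cluster 1, so it met the minimum of 500 only with that cluster counted. *Notch3*, with 488 UMIs, was 12.5-fold higher. *Dll3* (ratio 0.169) and *Dll1* (ratio 0.338) were the 2 that were lower. *Hey1* was 1.95-fold and *Notch1* 1.602-fold higher, short of that mark. *Xist*, *Pdgfra*, *Egfr* and the summed markers of OPCs and neural progenitors moved with the same cluster, and their part in these values was not tested.

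The wider pathway was read from a list of 50 other genes, of which 35 had at least 500 UMIs and 2 had none. Of the 35, 19 (54.3%) differed more than 2-fold between clusters, with a median ratio of 2.09, beside 38.5% and 1.75 for all genes. The 8 with the largest ratios were *Cntn1* (25.3), a neural adhesion molecule reported as a Notch ligand, *Lfng* (15.7), *Id3* (13.1), *Nrarp* (12.1), the ligand ubiquitin ligases *Neurl1b* (4.86) and *Neurl1a* (4.22), the protease *Adam17* (3.85) and *Dtx1* (3.79), a deltex family ubiquitin ligase. In cluster 1, *Lfng* was at 45.5 CPM (42.7 to 48.4) against 6.24 CPM in other nuclei, and *Nrarp* at 13.1 CPM (11.7 to 14.7) against 1.89 CPM. *Neurl1a* and *Adam17* were highest there too, and *Neurl1b* in cluster 3. *Cntn1*, *Id3* and *Dtx1* were instead lowest in cluster 1. *Cntn1* was at 126.6 CPM there against 3205 CPM in cluster 2, and *Id3*, listed as a further target, at 8.49 CPM against 111.5 CPM in cluster 4. *Ccnd1*, listed likewise, was also lowest there, at 959.7 CPM against 1737 CPM in cluster 3. Of the 35, 6 were more than 2-fold higher in cluster 1 than in other nuclei, where 8.11% of all genes were, and 4 lower, where 9.9% were. *Nrarp*, with 291 of its 516 UMIs in cluster 1, was among the 35 only with that cluster counted. *Rbpj*, the DNA-binding partner of cleaved Notch, ranged 1.62-fold. It was lowest in cluster 6, with 51.9 CPM (47.9 to 56.1), and highest in cluster 1, with 84.1 CPM (80.3 to 88.0), which is 1.43 times its level in all other nuclei. Its highest level thus lay in the same cluster as those of the receptors and of *Hes1*, *Hes5* and *Hey1* among clusters of at least 500 nuclei, but not as those of *Id3* and *Ccnd1*.

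Whether single nuclei hold ligand and target together was asked by co-detection, the number of thinned nuclei with a UMI of both divided by the number that the product of the shares gives. A ligand UMI (*Dll1*, *Dll3* or *Jag1*) was present in 2999 nuclei (34.2%) and a target UMI (*Hes1*, *Hes5* or *Hey1*) in 1018 (11.6%). Both were present in 302 nuclei, where 348.5 were predicted, a ratio of 0.867 (0.772 to 0.970). Among nuclei with a ligand, 10.1% (9.02 to 11.2%) had a target, against 12.4% (11.6 to 13.3%) of those without. When the product was taken within each cluster and summed, the ratio was 1.00 (0.890 to 1.12). The deficit therefore lay between clusters: cluster 1 made up 19.4% of thinned nuclei but 38.0% of those with a target and 8.70% of those with a ligand. Without cluster 1 the ratio was 0.993 (0.872 to 1.13), or 0.941 with a new draw of the thinning. With no thinning it was 0.992, but nuclei then differ in depth, so that unlinked genes need not give 1.

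Single pairs of a ligand and a target were then read. *Dll3* and *Hes5* were found together in 19 nuclei where 34.3 were predicted (0.554, 0.334 to 0.865), and *Dll3* and *Hes1* in 68 where 102.3 were predicted (0.664, 0.516 to 0.842). Within clusters the ratios were 0.646 (0.389 to 1.01) and 0.884 (0.687 to 1.12). The first of these rested on few nuclei and on the draw of the thinning. It was 0.756 (0.498 to 1.1001) with another seed and 1.005 with no thinning. Without cluster 1 it was 0.588 (0.329 to 0.969) in the first draw, 0.919 (0.595 to 1.36) with the other seed and 0.961 with a new draw. *Dll3* and *Hes1* were at 0.663 with the other seed, and at 0.872 (0.667 to 1.12) without cluster 1. *Dll1* was found with *Hes1* at 0.785 (0.599 to 1.01), with *Hes5* at 0.703 (0.417 to 1.11) and with *Hey1* at 1.15 (0.813 to 1.58), intervals that held 1 and overlapped those of *Dll3*. The interval of *Dll1* with *Hes1* lay below 1 with 3000 to 7000 detected genes (0.7185, 0.532 to 0.950) and without the top 8% of Scrublet scores (0.752, 0.562 to 0.986). With another seed it held 1 (0.829, 0.635 to 1.06). *Jag1* was found with *Hes1* at 1.04 (0.811 to 1.32), with *Hey1* at 1.33 (0.939 to 1.82) and with *Hes5* at 0.902 (0.551 to 1.39), each with an interval that held 1. With no thinning *Jag1* was above 1 with *Hes1* (1.12, 1.02 to 1.23) and with *Hey1* (1.18, 1.04 to 1.34), as was *Dll1* with *Hey1* (1.137, 1.005 to 1.28). Unlinked genes need not give 1 in that setting, so these values do not show a link. Without cluster 1 *Jag1* with *Hey1* was at 1.499 (1.02 to 2.13), but at 0.924 (0.564 to 1.43) with a new draw. Of the 9 pairs of a ligand and a target, 6 were below 1, 2 of them with an interval below 1, and none had an interval that left out 1 within clusters.

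Pairs of targets with *Hes5* were found together more often than the product gives. *Hes1* and *Hes5* shared 31 nuclei (2.16, 1.47 to 3.07) and *Hes5* and *Hey1* shared 17 (2.74, 1.597 to 4.39), and within clusters the ratios remained at 1.72 (1.17 to 2.44) and 2.38 (1.38 to 3.81). *Hes5* and *Nrarp* shared 19 nuclei where 3.70 were predicted (5.14, 3.09 to 8.02), with 3.27 (1.97 to 5.11) within clusters. Of these 19 nuclei, 17 were in cluster 1, and outside it the ratio was 2.04 (0.247 to 7.38). *Nrarp* was also found with *Hes1* at 1.99 (1.25 to 3.02) and with *Hey1* at 2.72 (1.45 to 4.65), and within clusters at 1.16 (0.729 to 1.76) and 1.98 (1.05 to 3.38), but with *Hey1* at 1.82 (0.784 to 3.58) in another draw of the thinning. *Hes1* and *Hey1* did not follow this, at 0.972 (0.576 to 1.54). In cluster 1 alone, *Hes1* with *Hes5* was at 1.36 (0.775 to 2.20), an interval that held 1, and at 1.73 (1.07 to 2.64) in another draw of the thinning. Without cluster 1, *Hes1* with *Hes5* was at 2.36 (1.32 to 3.89), and at 1.905 (0.984 to 3.33) in another draw of the thinning, where the interval held 1. There *Hes5* with *Hey1*, in 6 nuclei of the first draw, was at 1.84 (0.674 to 4.00003), an interval that held 1. When only nuclei whose mitochondrial share was 5% or less were used (1954), both intervals held 1, at 1.78 (0.577 to 4.15) and 1.73 (0.2095 to 6.25). Among ligands, *Dll1* and *Dll3* shared 244 nuclei (1.33, 1.17 to 1.51), with 1.19 (1.05 to 1.35) within clusters, whereas *Jag1* was found with *Dll1* at 0.998 and with *Dll3* at 1.06.

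Of the targets, *Hes1* was found with *Notch2* and with *Notch3* more often than the product gives, whereas *Hey1* was not. *Notch2* and *Notch3* shared 42 nuclei where 15.02 were predicted (2.80, 2.02 to 3.78), which within clusters became 1.16 (0.835 to 1.57). *Notch2* was found with *Hes1* at 1.70 (1.37 to 2.08) and with *Dll3* at 0.557 (0.437 to 0.701), and within clusters at 1.09 and 0.849. *Notch3* was found with *Hes1* at 1.87 (1.17 to 2.84), and within clusters at 1.00. *Hes5* was at 1.53 (1.02 to 2.21) with *Notch2* and at 1.78 (0.716 to 3.67) with *Notch3*. *Hey1* was at 0.971 (0.616 to 1.46) with *Notch2* and at 0.787 (0.214 to 2.02) with *Notch3*. *Hes6* was found with each of the other 9 genes at ratios between 0.973 and 1.28, each with an interval that held 1. Of all 45 pairs, 7 had an interval below 1 and 8 above 1, and within clusters these numbers were 0 and 3. The same share over pairs of other genes was not computed, so these numbers only describe this set. The 3 that held within clusters were *Dll1* with *Dll3*, *Hes1* with *Hes5* and *Hes5* with *Hey1*.

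**Figure D3:**
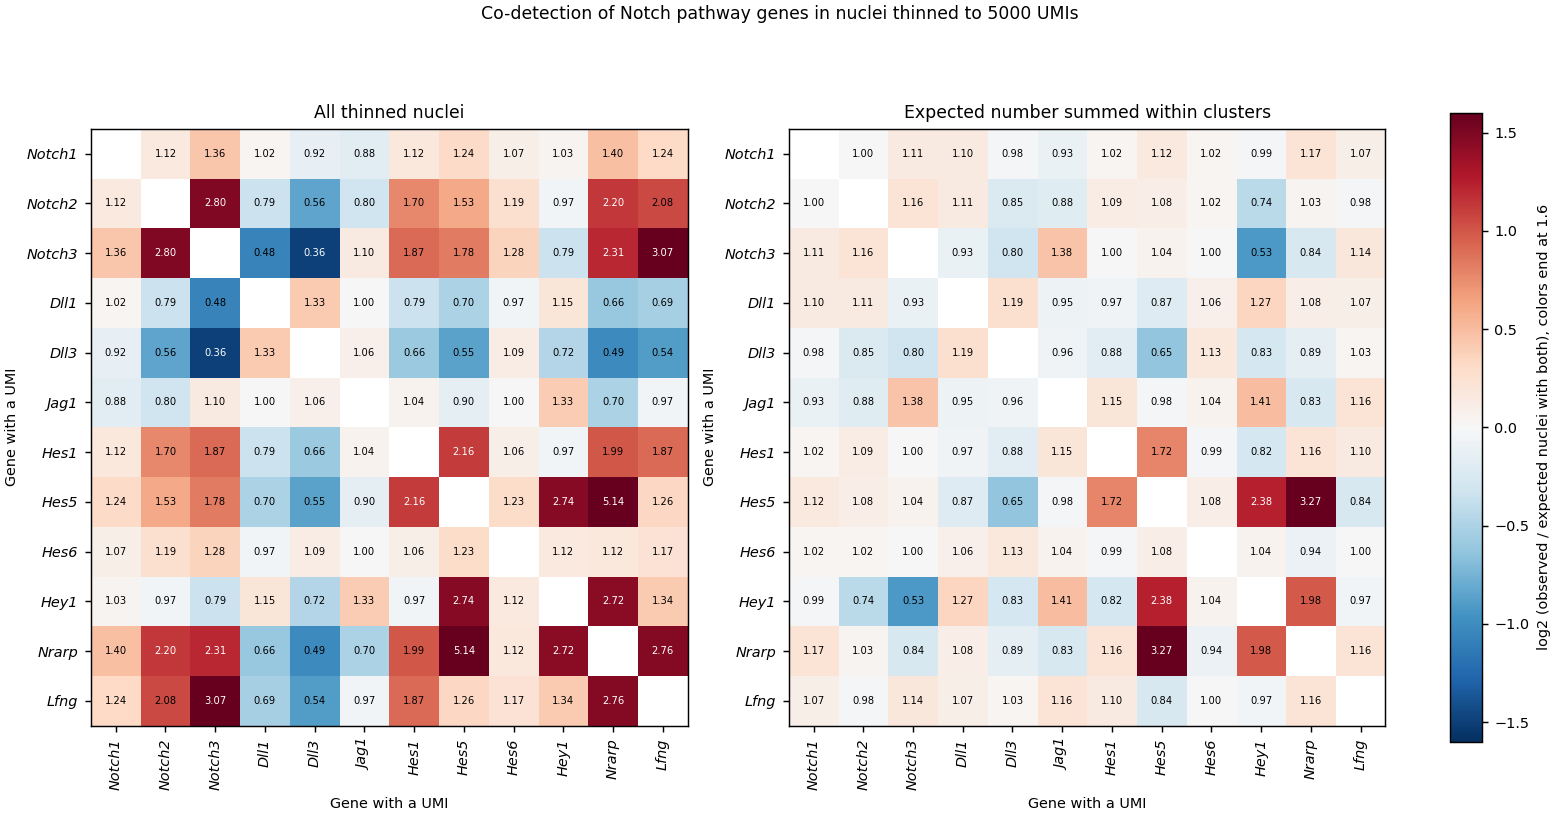
Observed over predicted number of nuclei with a UMI of both genes, printed in each cell and colored by its log2, for the 10 genes, *Nrarp* and *Lfng*, in 8760 nuclei thinned to 5000 UMIs. The left panel uses all nuclei and the right panel sums the prediction over clusters: most values move toward 1 on the right, but *Hes5* with *Nrarp* (3.27) and with *Hey1* (2.38) stay above it.

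Nuclei with and without a UMI of each gene were then compared for the levels of the others. Nuclei with a *Dll3* UMI (1465) had *Hes5* at 2.59 CPM, against 6.58 CPM in nuclei without (ratio 0.394, 0.233 to 0.629). *Hes1* was at 9.42 against 17.03 CPM (0.553, 0.425 to 0.710) and *Hey1* at 4.37 against 6.61 CPM (0.661, 0.442 to 0.959). *Notch2* was at 11.7 against 23.2 CPM (0.506). All 4 were past 1.5-fold lower, of 8 genes of the set compared, where 3.3% of all genes were that much lower. *Dll1* moved the other way, at 36.6 against 26.3 CPM (1.39, 1.21 to 1.59), and *Hes6* was at 33.2 against 29.6 CPM (1.12, 0.971 to 1.29).

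Nuclei were split by *Dll1* and by *Jag1* as well. With a *Dll1* UMI, *Hes5* was at 3.84 against 6.21 CPM (0.618, 0.376 to 0.967), the one target past 1.5-fold, where 2.83% of all genes were that much lower, but with another seed of the thinning its ratio was 0.801 and no target was past 1.5-fold. Without cluster 5 the number of targets past 1.5-fold by *Dll1* was 0 as well. In the first draw *Hes1* was at 11.3 against 16.4 CPM (0.692). With a *Jag1* UMI none of the 8 genes was past 1.5-fold, where 1.78% of all genes were, and *Hey1* was at 8.24 against 5.99 CPM (1.38, 0.953 to 1.94). In all, 4 of the 9 ratios of a target by a ligand were past 1.5-fold, 3 of them by *Dll3*. Without cluster 1 that number was 3 in the same draw, of which *Hes5* by *Dll3* (0.446, 0.243 to 0.762) and by *Dll1* (0.562) were lower and *Hey1* by *Jag1* (1.62) was higher, where 1.09%, 1.59% and 2.25% of all genes were past 1.5-fold by *Dll3*, *Dll1* and *Jag1*. It was 0 with a new draw of the thinning, where *Hes5* by *Dll3* was 0.846. With another seed *Hes5* by *Dll3* was 0.578 (0.376 to 0.858) in all nuclei and 0.773 (0.487 to 1.19) outside cluster 1. The lower *Hes1* and *Notch2* with *Dll3* were not past 1.5-fold outside cluster 1 in either draw, at 0.806 and 0.896 for *Hes1* and 0.889 and 1.03 for *Notch2*. Of the pathway list, *Lfng* (0.451, 0.331 to 0.603) and *Nrarp* (0.412, 0.215 to 0.726) were past 1.5-fold lower with *Dll3*. Outside cluster 1 their intervals held 1, with *Lfng* at 0.828 (0.551 to 1.21) and *Nrarp* at 0.786 (0.338 to 1.62), and with another seed at 1.16 and 0.5302 (0.218 to 1.12). *Rbpj* was at 56.4 against 62.8 CPM with *Dll3* (0.897).

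Nuclei with a *Hes5* UMI (205) were compared in the same way. *Nrarp* was at 21.5 against 3.46 CPM (6.20, 3.77 to 9.75), *Hey1* at 17.6 against 5.96 CPM (2.95, 1.72 to 4.75) and *Hes1* at 35.1 against 15.3 CPM (2.30, 1.59 to 3.21). *Dll3* was at 24.4 against 41.0 CPM (0.595, 0.384 to 0.882) and *Dll1* at 18.5 against 28.3 CPM (0.655, 0.393 to 1.03), while *Jag1* was at 19.5 against 24.1 CPM (0.809, 0.492 to 1.26). Of the 8 genes of the set compared, *Hey1*, *Hes1* and *Notch2* were past 1.5-fold higher, where 5.92% of all genes were, and *Dll3* and *Dll1* past it lower, where 6.97% were. *Notch2* was at 32.2 against 21.02 CPM (1.53, 1.05 to 2.17), but with another seed of the thinning at 1.13 (0.719 to 1.69). With another seed of the thinning *Nrarp* (5.398, 3.25 to 8.53), *Hey1* (2.86) and *Hes1* (2.90) were again past 1.5-fold, but *Dll3* (0.696, 0.468 to 0.997) and *Dll1* (0.847) were not. Outside cluster 1 the interval of *Hes1* (2.44, 1.38 to 4.02) left out 1, and those of *Nrarp* (2.04, 0.241 to 7.75) and *Hey1* (1.82, 0.661 to 4.05) did not. Only 0.114% of the genes tested had a higher ratio than *Hey1* and none a higher ratio than *Nrarp*. Of the 35 pathway genes tested, 5 were past 1.5-fold higher and 3 lower. Besides *Nrarp*, those that were higher were *Aph1b* (1.70), a subunit of γ-secretase, *Neurl1a* (1.70), *Dtx4* (1.63) and *Dtx3* (1.55), and those that were lower were *Insm1* (0.476), *Mfng* (0.588) and *Mib2* (0.665), which rested on 5 or fewer UMIs each in the *Hes5* nuclei.

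Nuclei were also split by receptor. Nuclei with a *Notch2* UMI (783) had *Hes1* at 29.9 against 14.4 CPM (2.08, 1.69 to 2.54), where 7.26% of all genes were past 1.5-fold higher, and *Dll3* at 24.5 against 42.2 CPM (0.581, 0.468 to 0.715), where 7.06% were past it lower. Outside cluster 1 these ratios were 1.01 and 0.972. Nuclei with *Notch1* had *Hes5* at 8.003 against 4.77 CPM (1.68, 1.30 to 2.16), a ratio that few genes reached, since 0.63% of all genes were past 1.5-fold higher. They also had *Nrarp* at 5.36 against 3.07 CPM (1.74, 1.27 to 2.38) and *Lfng* at 18.1 against 11.4 CPM (1.59, 1.35 to 1.87), but *Hey1* at 6.52 against 6.08 CPM (1.07). With another seed of the thinning the ratios were 1.48, 1.38 and 1.40, none past 1.5-fold. Within clusters *Notch1* was found with *Hes5* at 1.12 (0.8996 to 1.38), with *Nrarp* at 1.17 (0.921 to 1.45) and with *Lfng* at 1.07 (0.939 to 1.22), each with an interval that held 1. These ratios count shared nuclei and do not test the levels. In cluster 1 of the first draw, *Notch1* was at 186.7 CPM (141.0 to 242.4) in nuclei with 1 *Hes5* UMI. It was at 130.0 CPM (122.3 to 138.1) in those with none. The intervals with 2 and with 3 or more *Hes5* UMIs held 130.0 CPM, on 2 and 9 *Notch1* UMIs. In the other clusters *Notch1* was at 83.8 CPM (62.0 to 110.7) with 1 *Hes5* UMI and 84.5 CPM with none. Nuclei with *Hes6* had none of the set past 1.5-fold, where 1.34% of all genes were. Split by *Hes1*, 1 of 8 genes of the set was past it lower and 2 higher, where 3.56% and 3.97% of all genes were. By *Hey1*, 1 of 8 was lower and 1 higher, where 5.1% and 3.44% were. By *Notch3*, 2 of 9 were lower and 4 higher, where 14.1% and 14.6% were.

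Levels were also read by the number of ligand UMIs in a nucleus. *Hes5* was at 6.94 CPM (6.01 to 7.98) in the 5761 nuclei with no ligand UMI, at 4.47 CPM (3.31 to 5.91) in the 2192 with 1, at 2.60 CPM (1.12 to 5.13) in the 615 with 2 and at 2.08 CPM (0.252 to 7.53) in the 192 with 3 or more. *Hes1* was at 17.8, 12.4, 9.11 and 14.6 CPM in the same order, and *Nrarp* at 4.72, 2.55 and 1.95 CPM and with no UMI in the last group. *Hey1* had no such order, at 6.28, 6.02, 7.15 and 4.17 CPM. Outside cluster 1 the gradient of *Hes1* was small, at 10.9 CPM (9.54 to 12.4) with no ligand UMI and 9.94 CPM (8.06 to 12.1) with 1, whereas *Hes5* was at 5.19 CPM (4.27 to 6.24) and 2.97 CPM (1.99 to 4.27). With another seed of the thinning this difference of *Hes5* outside cluster 1 was not seen, at 4.501 CPM (3.65 to 5.49) and 4.42 CPM (3.21 to 5.93). *Nrarp*, with 56.4% of its UMIs in cluster 1, had no such difference outside it, at 1.57 CPM (1.09 to 2.20) with no ligand UMI and 1.74 CPM (1.02 to 2.79) with 1, and within cluster 1 its intervals overlapped, at 14.1 CPM (11.5 to 17.2) and 9.13 CPM (4.56 to 16.3). Within cluster 1, *Hes5* was at 12.2 CPM (9.79 to 15.04) with no ligand UMI and 16.6 CPM (10.1 to 25.6) with 1, and with the other seed at 12.5 and 10.7 CPM.

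**Figure D4:**
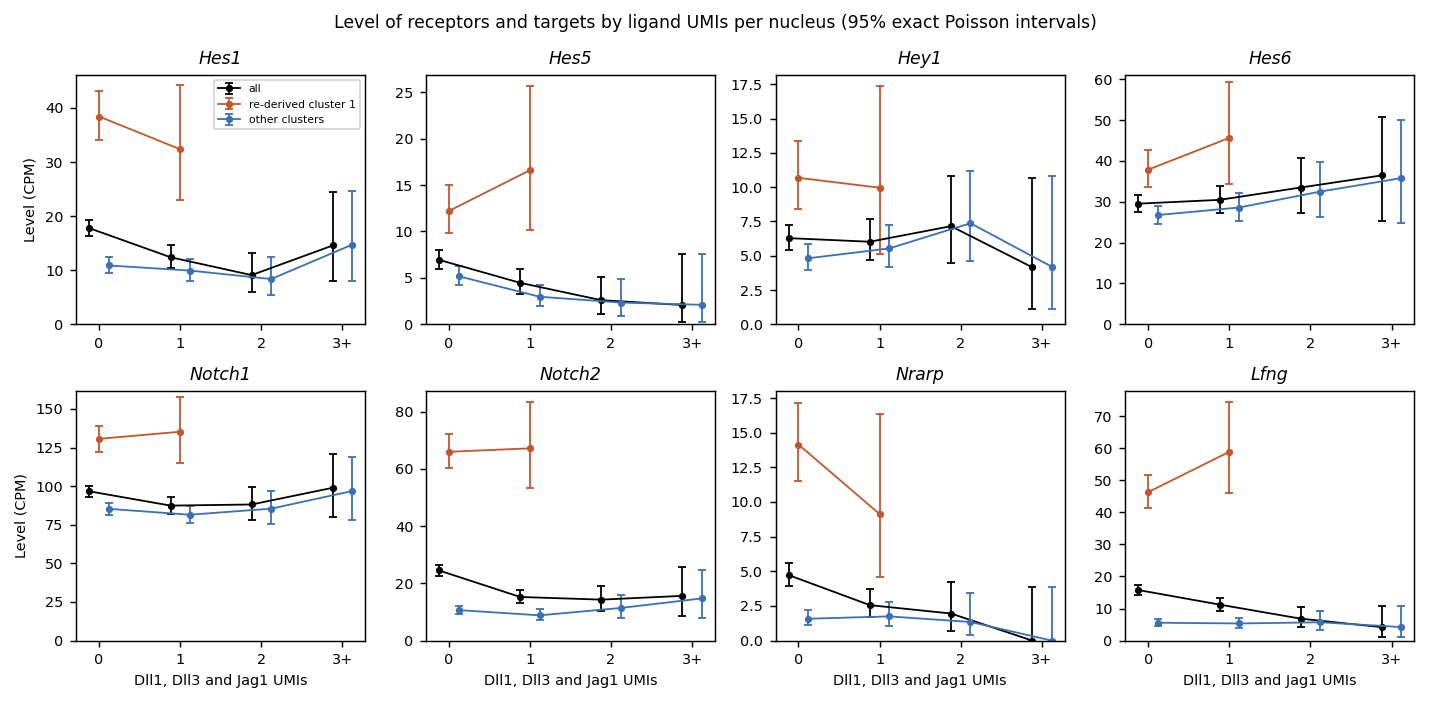
Level (CPM, vertical axis) of targets, *Hes6*, receptors, *Nrarp* and *Lfng* in thinned nuclei with 0, 1, 2 and 3 or more UMIs of *Dll1*, *Dll3* and *Jag1* together (horizontal axis), in all nuclei, in cluster 1 and in the other clusters, with 95% exact Poisson intervals. Groups under 100 nuclei are not drawn. In all nuclei *Hes5* goes from 6.94 to 2.08 CPM, and cluster 1 lies above the other clusters for *Hes1*, *Notch2* and *Nrarp* at 0 and 1 ligand UMIs.

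The genes most like each member across the 8760 thinned nuclei were sought among 11214 genes by Pearson's r of log-normalized counts, which share one library and its depth. *Notch2* was most like *Vav3* (0.256), *Xist* (0.251) and *Tnc* (0.234), and *Notch3* and *Hes1* were led by *Xist* (0.175) and *Igfbp2* (0.157). *Dll3* was most like *Dcc* (0.164), *Cntn1* (0.161) and *Sox6* (0.149), and *Dll1* was most like the first of these as well, with *Dcc* at 0.133 and *Cntn1* at 0.129. *Hes5* shared no leading gene with *Hes1*: its first genes were *Fabp7* (0.122), a lipid carrier of radial glia and progenitors, and *Lrig1* (0.118), a brake on growth factor receptors. *Jag1* had only *Fam135b* (0.105) above 0.1, and *Hes6* and *Hey1* had none. All these correlations are weak, as is usual in sparse counts.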

How the data were processed

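A 10x 3′ v3.1 library was made from nuclei of cultured BB-p53n OPCs. The values deposited by the authors are UMI counts, neither normalized nor filtered by detected genes, made with Cell Ranger 8.0.1 and mm39 per the labels. The strand setting of the counting is not given in the sources used here. Barcodes with 2000 to 8000 detected genes were kept, which gave 141138093 UMIs. Counts were summed into CPM, with 95% exact Poisson intervals and, for shares of nuclei, 95% exact binomial (Clopper-Pearson) intervals. UMIs of 1 library limit precision, so intervals and floors (3 counts) cover counting error only. Clusters were made with Seurat 5.3.0 in R 4.3.3 with parameters that the study states, on all 8917 kept nuclei: counts log-normalized to 1000 per nucleus, total counts regressed out, the first 20 components of 3000 variable genes, a graph of 200 neighbors, and resolution 1. The cutoffs that the study states leave 8917 of 10047 barcodes, whereas it lists 1954 nuclei of this library after filtering, the number that has at most 5% mitochondrial UMIs here, so these clusters are not those of the study. Nuclei were thinned to 5000 UMIs with a fixed seed for shares, co-detection and splits by detection. The interval of a co-detection ratio is the exact Poisson interval of the observed number over the predicted number. No share over pairs of other genes was taken for these ratios. A gene counted as past the mark at 2-fold between clusters or 1.5-fold between nuclei with and without a UMI, read beside the same share of all genes with at least 500 UMIs. Scrublet in scanpy 1.11.5 (Python 3.11.15) called 0 doublets, and none were removed. Whether its calls had worked was not tested, so 0 calls do not show that doublets are absent. Positions are from GENCODE vM39 on GRCm39, and promoter sequences from RefSeq on GRCm38.p6, which is another build. The scripts were tested on simulated data.

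The members, the pathway list and the marker lists were chosen with earlier results of these data known. The text names all 10 members, the pathway genes past the mark in a comparison (at most 8, by size of ratio), *Rbpj*, *Nrarp* and *Heyl* always, and up to 3 genes of highest Pearson r for each member. Of the pathway list, 1 gene is not reported here. The nuclei with 4 or more *Hes5* UMIs, their split by cluster 1, and the settings without cluster 1, without cluster 5 and without cluster 1 in a new draw of the thinning, were chosen after seeing the data. Alternatives tried were gene cutoffs of 3000 to 7000, at most 5% mitochondrial UMIs, removal of the top 8% of doublet scores, other thinning, 2 or more UMIs as detection, other clusterings and other minimums of UMIs.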

Additional observations from a re-analysis of the deposited data

How the results depend on the processing

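The number of members above 10 CPM was 7 under all 5 alternatives tried, but of 50 levels 18 lay outside the counting interval of the main value. With at most 5% mitochondrial UMIs 8 of the 10 levels did, such as *Notch2* at 14.1 CPM, *Notch3* at 2.39 CPM and *Dll3* at 36.5 CPM. The number past 2-fold between clusters was 8 of 9, where 38.5% of all genes were. It lay between 7 and 9 under 9 other settings, where that share was 32.9 to 43.2% but 68.8% with no minimum of UMIs (9 of 10 members), and was 5 without cluster 1, where it was 20.6%. The co-detection of a ligand and a target, 0.867, was 0.993 without cluster 1 and 1.00 with the product taken within clusters, so that no deficit was left. With no thinning it was 0.992, but nuclei then differ in depth and unlinked genes need not give 1, so that value cannot show whether a deficit was left. In the other 8 settings it lay between 0.829 and 0.941, but in 3 of them the interval held 1: at most 5% mitochondrial UMIs (0.844, 0.627 to 1.11), 2 or more UMIs of a ligand (0.861, 0.63 to 1.15) and without cluster 1 in a new draw of the thinning (0.941, 0.823 to 1.07). The targets past 1.5-fold by ligand numbered 4, between 3 and 5 in 10 settings, and 0 without cluster 1 in a new draw of the thinning. The share of all genes past 1.5-fold was 1.78 to 4.04% by ligand, 5.39 to 6.92% with thinning to 3000 UMIs (3 targets), 9.85 to 13.7% with at most 5% mitochondrial UMIs (5 targets), 11.9 to 21.8% at 2 or more UMIs of a ligand and 37.2 to 38.3% with no minimum of UMIs. Of the 12 single pairs, 5 had an interval that left out 1. Of the 55 values of these 5 under other settings, 2 crossed 1: *Dll3* with *Hes5* was 1.005 with no thinning, and *Dll1* with *Dll3* was 0.286 (0.00723 to 1.59) at 2 or more UMIs of a ligand. Of the 77 values of the other 7 pairs, 14 crossed 1. The cause was not tested. No paired analysis was possible because there is 1 library and no group to pair it with. *Hes5*, *Hey1* and *Notch3* rest on 488 to 831 UMIs, which limits their pairs to few nuclei and lets the draw of the thinning move them.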

Other observations

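The 918 barcodes below 2000 detected genes (median 1717 UMIs) and the 212 above 8000 (median 53105 UMIs) were used in no comparison between nuclei. They entered only the alternative levels over all deposited barcodes. *Notch1* was at 87.1 CPM (73.8 to 102.0) in the first and 99.0 CPM (93.3 to 104.9) in the second, beside 88.5 CPM in the kept nuclei. *Dll1* was at 38.7 CPM (30.0 to 49.1) in the barcodes of few genes, beside 28.5 CPM in the kept nuclei, and *Dll3* at 53.3 CPM (49.2 to 57.7) in those of many genes, beside 42.6 CPM. *Hes6* was at 17.6 CPM (11.99 to 25.04) in the barcodes of few genes, beside 29.6 CPM. *Hes5* was at 7.40 CPM (3.94 to 12.7) and 6.45 CPM (5.06 to 8.09), beside 5.002 CPM.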
